A study of Mus musculus with 36 samples.

Results

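The comparison described here set whole bladders of adrenalectomized, vehicle-treated mice at 20 h against those at 8 h, 12 h apart on the clock of the sample labels. Its members are the 3 libraries labelled vehicle 20 h and the 3 labelled vehicle 8 h, 6 of the 36 libraries of the series, chosen by their labels alone. All 49585 features of the deposited tables were read for them, and 17717 features that were above 0 in enough libraries were tested. The mice were C57BL/6 and all had undergone bilateral adrenalectomy, the removal of both adrenal glands, so the control bladders also came from animals without an adrenal source of corticosterone. The groups used were vehicle 20 h and vehicle 8 h. Beside them stood CORT 20 h and CORT 8 h, from adrenalectomized mice given corticosterone at the inactive phase, and vehicle 16 h, 4 h, 24 h and 12 h, each with 3 libraries. The labels give neither the age and sex of the animals nor what time zero is. They leave unsaid whether 1 animal or several stand behind the 3 libraries of a group, so the p-values measure the spread between libraries only, which may be technical in part. RNA was rRNA-depleted before sequencing, per the labels' protocols, which speak of blood RNA although the source is given as whole bladder. The libraries carried bladder markers: smooth muscle genes summed to 385487 to 411821 at 20 h and 338389 to 456355 at 8 h, and urothelial genes to 95012 to 99584 at 20 h and 81135 to 105046 at 8 h. All levels are quantile-normalized signal, on which a value of 100 stood for 84 to 133 reads in the 6 libraries.

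The circadian clock of mammalian cells is a feedback loop of transcription. CLOCK and BMAL1 (the product of Arntl) bind E-boxes and switch on the Per, Cry and Nr1d genes, whose products then repress CLOCK and BMAL1 or the Arntl gene itself. The bladder holds such a clock in its urothelium and muscle, and glucocorticoids from the adrenal gland are one of the signals that set the time of clocks in peripheral tissues. Cell division is rare in the adult bladder, and a separate transcription programme switches on genes for spindle, kinetochore and cytokinesis in cells that pass through G2 and M phase.

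Libraries that stood apart come first, because results rest on them. The 20 h replicates 2 and 3 carried transcripts of hepatocyte genes that 20 h replicate 1 lacked. Alb, which encodes serum albumin, was at 5.94, 5486 and 2293 in the 20 h replicates 1, 2 and 3, against 126, 28.5 and 63.6 in the 8 h replicates. The sum of 24 hepatocyte markers, chosen after their values were seen, was 78.9, 16915 and 7077 at 20 h and 343, 180 and 294 at 8 h. The highest sum among the other vehicle libraries was 3842, in 24 h replicate 1. Of 23 such markers tested, all 23 had a positive log2 difference, with a median of 2.83, but the groups overlapped for 22 and none was called, the smallest limma adjusted p being 0.224. The part of this RNA in the results was not tested, and values from 20 h replicate 1 alone are given for the leading genes and lists. In 8 h replicate 1, adipocyte markers summed to 4986, against 2294 and 2196 in the other 8 h libraries and 2390 to 3134 at 20 h. The immediate early gene Fos was at 370, 199 and 175 at 20 h and at 172.5, 1756 and 1743 at 8 h, so that 8 h replicate 1 lay with the 20 h libraries. A further doubt concerns names: in the authors' tables of selected genes, the column named vehicle 20 h replicate 2 holds the values that the full tables give for vehicle 8 h replicate 2, and the column named vehicle 8 h replicate 2 holds those of CORT 20 h replicate 2. The names of the full tables are used unless stated.

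At 20 h the bladder had less RNA of the clock repressor Nr1d1 and the clock output Dbp, and less RNA of genes of cell division such as Ccnb1, Cdk1 and Cenpe, than at 8 h. It had more RNA of Arntl and Cry1, 2 genes of the clock, and of Angptl7, Ces1g, Pitpnm2 and Lonrf3. In bulk RNA of a whole organ, fewer cells of a type and less RNA per cell cannot be told apart. Of the 17717 features tested, 27 were called by limma at a Benjamini-Hochberg adjusted p under 0.05, which is 0.152% of them. The calls divided into 6 that were higher at 20 h (0.0339%) and 21 that were lower (0.119%). Their log2 differences ranged in size between 0.85 and 3.30, and the 3 libraries of each time did not overlap for any of the 27. At an unadjusted p under 0.05, 1489 features passed. Over all features tested the median log2 difference was -0.01, and 52.5% of the differences were negative. All 3 libraries at 20 h lay above all 3 at 8 h for 1415 features (7.99%) and below them for 1620 (9.14%).

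The number of calls rested on single libraries. Without 20 h replicate 1, 40 genes were called, and without 20 h replicate 2 or 3, 9 in each case. Without 8 h replicate 1, 2 or 3, the calls numbered 44, 7 and 10 in that order. With 20 h replicate 1 as the single 20 h library, 1 gene was called, Nr1d1, with a log2 difference of -3.47 (limma adjusted p = 0.00081). The signs of the 27 genes could not turn when libraries were only left out, since the groups do not overlap. With the libraries of doubtful name left out, 3 genes were called, among them Nr1d1 and Dbp. Under the other names no gene was called and 360 passed an unadjusted p under 0.05. The differences of all 27 had the same signs there, and that of Nr1d1 was -1.69. Replicates 1 and 3 of both times keep their names in that setting. The 27 genes were called on these same libraries, so the kept signs are no separate support.

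**Figure D1:**
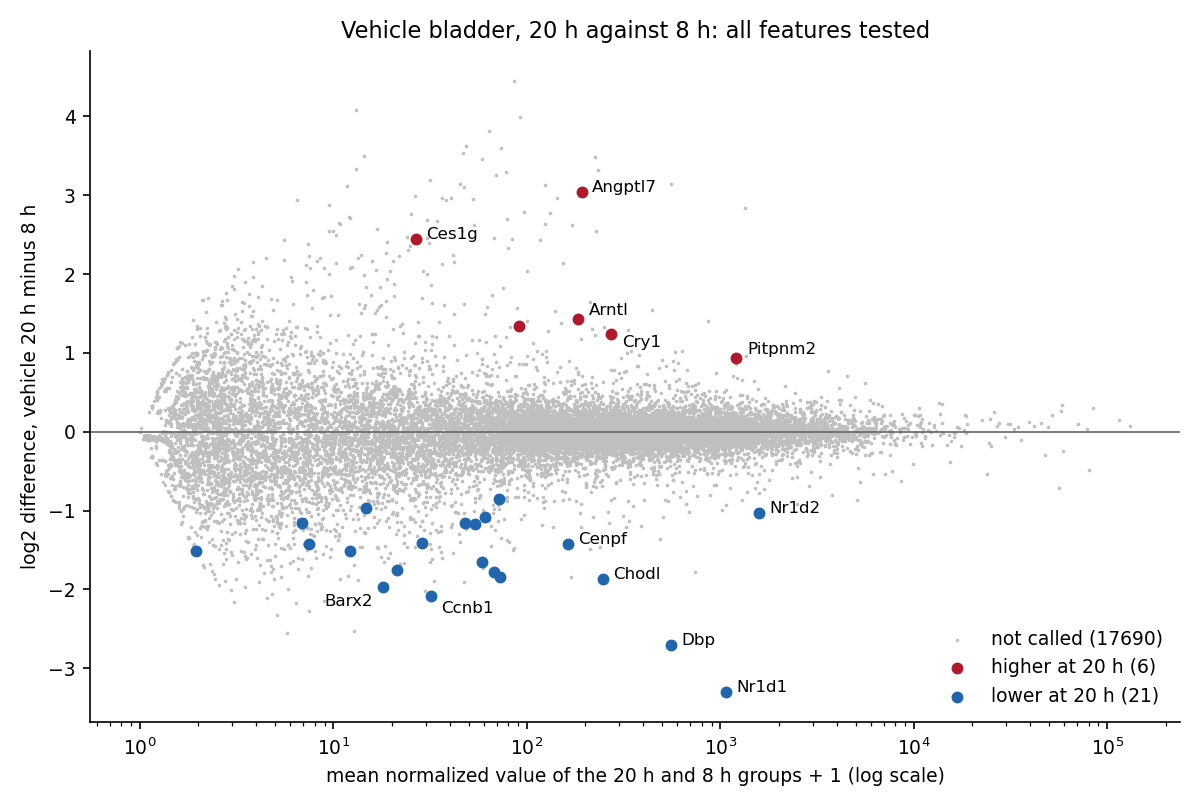
Difference between 20 h and 8 h (log2) of each of the 17717 features tested against its mean level (log axis) in the 6 vehicle libraries. The 27 called features are in colour and the main ones named. The lower calls reach a log2 difference of -3.30 for Nr1d1, and Angptl7 is the highest of the higher calls at 3.05.

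Nr1d1 encodes REV-ERBα, a nuclear receptor that represses Arntl, and lies at chr11:98767932-98775333 on the minus strand (GRCm38, as are all positions here). It was at 174, 207 and 207 at 20 h, against 2073, 1820 and 1919 at 8 h. Every 20 h library was far below every 8 h library, and the level was 9.86-fold lower (log2 -3.30, SE 0.19, limma adjusted p = 1.68e-06). Its paralog Nr1d2, which encodes REV-ERBβ, was at 1171, 1030 and 921 at 20 h and 2395, 2111 and 1861 at 8 h (log2 -1.03, SE 0.16, limma adjusted p = 0.0206). Both genes fell at 20 h, with no overlap between the times. Nr1d2 had a log2 difference of -0.85 with 20 h replicate 1 alone and was then not called (limma adjusted p = 0.729). The Nr1d1 gene overlaps Thra on the opposite strand over 1075 bases, and the labels do not say whether counting used the strand. Thra, which encodes a thyroid hormone receptor, was at 715, 776 and 793 at 20 h and 1035, 876 and 960.5 at 8 h and was not called (log2 -0.33, limma adjusted p = 0.432).

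Dbp (chr7:45705088-45710203, plus strand) encodes a transcription factor that binds D-box elements and carries clock time to output genes. Its level was 162, 136 and 143 at 20 h, against 1077, 874 and 945 at 8 h. The groups were well apart, with a 6.52-fold lower level at 20 h (log2 -2.71, SE 0.23, limma adjusted p = 0.000108). It differed by -2.56 with 20 h replicate 1 alone, with a limma adjusted p of 0.0711. Dbp overlaps Sphk2, a sphingosine kinase gene, which was not called (log2 0.27, limma adjusted p = 0.618). Tef, of the same PAR bZIP family, was at 1180, 1120 and 1171 at 20 h and 2169, 2004 and 1800 at 8 h. These groups did not overlap either, but the difference was not called (log2 -0.78, limma adjusted p = 0.087). Hlf, the third member of the family, was at 637, 565.5 and 615 at 20 h and 447, 295 and 311 at 8 h, a log2 difference of 0.81 that was not called (limma adjusted p = 0.614). Nfil3, which encodes a repressor at D-boxes, was at 129, 137 and 125 at 20 h and 43.1, 81.2 and 83.1 at 8 h, also without overlap and not called (log2 0.96, limma adjusted p = 0.224).

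Arntl (chr7:113207465-113314126, plus strand) was at 245, 266 and 292 at 20 h, against 82.1, 108 and 107 at 8 h, and rose 2.70-fold (log2 1.43, SE 0.23, limma adjusted p = 0.0266). Cry1 (chr10:85131700-85185064, minus strand), which encodes a cryptochrome that inhibits CLOCK and BMAL1, was at 398, 377 and 374 at 20 h, against 155.5, 150 and 181 at 8 h. It rose 2.36-fold (log2 1.24, SE 0.17, limma adjusted p = 0.0086), so the repressors Cry1 and Nr1d1 differed in opposite directions. Arntl differed by 1.31 and Cry1 by 1.295 with 20 h replicate 1 alone, and neither was called (limma adjusted p = 0.715 and 0.359). Npas2, a partner of BMAL1 that can stand in for CLOCK, was at 211, 183 and 245 at 20 h and 125, 136 and 140 at 8 h and was not called (log2 0.66, limma adjusted p = 0.58).

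Other clock genes with no overlap were at lower levels at 20 h without being called. Ciart, which encodes a repressor of CLOCK and BMAL1, was at 2.94, 5.39 and 0.944 at 20 h and at 23.9, 19.8 and 17.3 at 8 h (log2 -2.53, limma adjusted p = 0.0987). Bhlhe41 encodes DEC2, which competes for E-boxes, and was at 272, 301 and 276.5 at 20 h and 625, 445 and 494 at 8 h (log2 -0.87, limma adjusted p = 0.0953). For its relative Bhlhe40 the levels were 373, 488 and 472 at 20 h and 693, 795 and 883 at 8 h (log2 -0.83, limma adjusted p = 0.472). Per3, a period gene, was at 178, 140 and 140 at 20 h and 261, 251 and 229 at 8 h (log2 -0.70, limma adjusted p = 0.269). The other period genes, whose proteins form the repressor complex with the cryptochromes, showed no such separation. Per1 was at 590, 493 and 493 at 20 h and 492, 594 and 554 at 8 h (log2 -0.06, limma adjusted p = 0.974). Per2 was at 528, 489 and 507 at 20 h and 417, 536.5 and 527 at 8 h (log2 0.05, limma adjusted p = 0.974). Cry2 was at 481, 487 and 477 at 20 h and 451, 430 and 441 at 8 h, above without overlap but with a log2 difference of 0.13 (limma adjusted p = 0.787). Clock, Rora and Rorb, which encode the partner of BMAL1 and activators of Arntl, overlapped between the times and had log2 differences of -0.12, 0.10 and -0.08.

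Of the lists of clock genes, 1 of 10 clock repressors was called higher and 2 lower, with 6 that lay below at 20 h without overlap and 2 that lay above. The median log2 difference of the repressors was -0.77, beside -0.01 over all features, of which 9.14% lay below without overlap and 7.99% above. Of all features, 0.0339% were called higher and 0.119% lower. Of 6 clock activators 1 was called higher, with a median of 0.01, and of the 4 PAR bZIP factors and Nfil3 1 was called lower, with a median of 0.01.

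**Figure D2:**
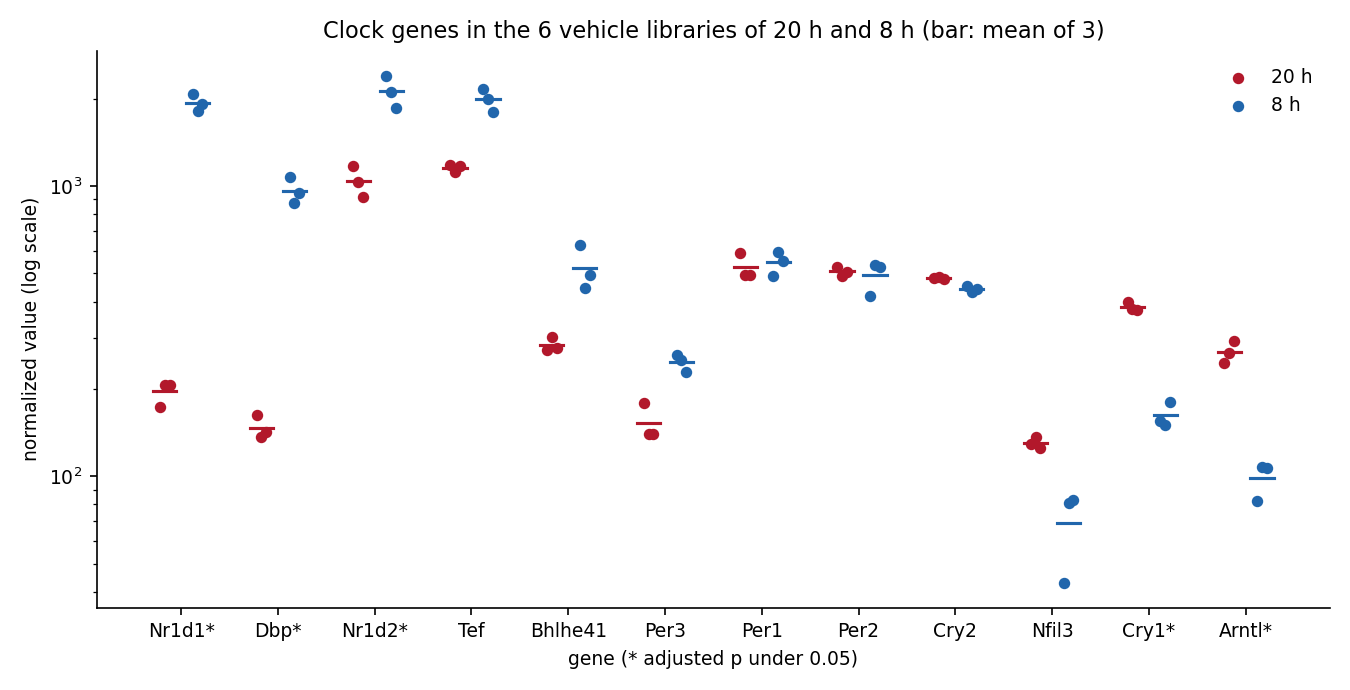
Level of clock genes in each of the 6 vehicle libraries (quantile-normalized signal, log axis), with the 3 libraries at 20 h to the left of the 3 at 8 h for each gene and a bar at the mean. Nr1d1 and Dbp lie lower at 20 h, Arntl and Cry1 lie higher, and Per1 and Per2 overlap.

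Promoters of clock genes and of genes of cell division differ in the short elements they carry, and 4 windows are shown here as examples that hold these elements, picked after the search. Each window holds the 250 bases before the gene's RefSeq start on GRCm38.p6, read 5′ to 3′ on the gene's strand. RefSeq starts can differ from the gene positions given here, and the Cry1, Cdk1 and Ccnb1 windows reach into those positions. Capitals mark a motif on either strand. For Cry1 (chr10:85185055-85185304, minus strand) and Ciart (chr3:95882229-95882478, minus strand), the capitals are the E-box CACGTG and the CCAAT box, which reads ATTGG on the other strand. For Cdk1 (chr10:69352913-69353162, minus strand), they are the CCAAT box and the cell cycle element TTTGAA. This element, known as the CHR, is described in human and mouse promoters active in G2 and M. For Ccnb1 (chr13:100786487-100786736, minus strand), the capitals are the CCAAT box only.
Cry1: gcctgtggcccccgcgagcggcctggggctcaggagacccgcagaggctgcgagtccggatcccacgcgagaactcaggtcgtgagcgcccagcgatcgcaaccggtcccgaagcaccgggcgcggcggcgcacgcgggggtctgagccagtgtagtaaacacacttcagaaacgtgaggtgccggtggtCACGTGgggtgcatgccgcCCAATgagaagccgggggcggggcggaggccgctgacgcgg
Ciart: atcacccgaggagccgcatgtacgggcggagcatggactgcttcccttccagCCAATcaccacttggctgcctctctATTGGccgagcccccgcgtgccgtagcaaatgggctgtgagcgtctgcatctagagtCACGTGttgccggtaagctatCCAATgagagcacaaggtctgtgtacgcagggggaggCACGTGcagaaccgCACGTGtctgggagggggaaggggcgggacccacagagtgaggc
Cdk1: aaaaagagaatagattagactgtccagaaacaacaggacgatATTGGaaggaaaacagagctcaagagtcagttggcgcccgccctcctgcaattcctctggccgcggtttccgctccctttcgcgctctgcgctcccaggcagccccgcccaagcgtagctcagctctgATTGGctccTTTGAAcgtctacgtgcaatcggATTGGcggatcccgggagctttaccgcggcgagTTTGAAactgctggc
Ccnb1: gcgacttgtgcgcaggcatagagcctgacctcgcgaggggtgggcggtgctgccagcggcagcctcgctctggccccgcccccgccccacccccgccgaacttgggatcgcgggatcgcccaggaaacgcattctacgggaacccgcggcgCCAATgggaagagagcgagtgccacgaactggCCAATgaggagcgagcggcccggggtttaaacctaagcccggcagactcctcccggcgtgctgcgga
The Cry1 window holds 1 E-box and 1 CCAAT box, and that of Ciart 3 of each. The Cdk1 window has 2 CHR and 3 CCAAT boxes, and that of Ccnb1 has 2 CCAAT boxes. Of the 20 clock genes of the 3 lists, 17 matched a window, and the E-box was found in 5 of them (29.4%), beside 6.86% of 27025 genes with a window. Of the 18 mitosis genes 15 matched, and the E-box was found in none, the CHR in 6 (40%) and the CCAAT box in 13 (86.7%). Over all genes with a window, 18.3% held the CHR and 37.5% the CCAAT box. Of the clock genes, none held the CHR and 12 (70.6%) held the CCAAT box, so the CCAAT box was frequent in both groups. The leading clock genes Nr1d1, Dbp and Arntl had no E-box in their windows. Dbp and Arntl held CCAAT boxes, and Nr1d1 held none of the motifs.

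The mitosis list, 18 genes expressed in dividing cells, lay lower at 20 h as a group. Of its members 5 were called lower, all 18 had a negative log2 difference, and for 16 the 20 h libraries lay below the 8 h libraries without overlap. The median was -1.40, beside -0.01 over all features, of which 0.119% were called lower and 9.14% lay below without overlap. Ccnb1 (chr13:100778650-100786570, minus strand) encodes cyclin B1, the regulatory subunit that activates the mitotic kinase. It was at 12.2, 10.9 and 9.44 at 20 h, against 39.1, 42.6 and 70.7 at 8 h, 4.25-fold lower (log2 -2.09, SE 0.26, limma adjusted p = 0.00413). Cdk1 (chr10:69335146-69352938, minus strand), the kinase itself, was at 26.1, 26.4 and 32.7 at 20 h, against 51.7, 69.2 and 73.7 at 8 h, 2.23-fold lower (log2 -1.15, SE 0.19, limma adjusted p = 0.0308). For both, even the lowest 8 h library, replicate 1, stood above the highest 20 h library. Ccnb1 differed by -1.93 and Cdk1 by -1.27 with 20 h replicate 1 alone, and neither was called (limma adjusted p = 0.378 and 0.467).

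The other called members belong to the machinery that moves and divides chromosomes. Cenpe, a kinesin at the kinetochore, was at 41.4, 29.1 and 22.8 at 20 h, against 85.8, 120 and 131 at 8 h (log2 -1.84, SE 0.22, limma adjusted p = 0.00413). Cenpf, a large kinetochore protein, was at 82.8, 79.8 and 98.0 at 20 h, against 211.5, 236 and 260 at 8 h (log2 -1.43, SE 0.21, limma adjusted p = 0.0139). Kif20a, a kinesin of cytokinesis, was at 27.4, 23.5 and 29.4 at 20 h, against 63.2, 108.5 and 93.4 at 8 h (log2 -1.66, SE 0.20, limma adjusted p = 0.00413), and its gene overlaps Cdc23. In all of these the groups were well separated.

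Of the uncalled members, Mki67, the proliferation marker Ki-67, had the most reads. It was at 229, 293 and 292 at 20 h and 537, 728 and 843 at 8 h (log2 -1.35, limma adjusted p = 0.0625). Top2a, the topoisomerase that untangles chromosomes, was at 161, 208 and 211 at 20 h and 323, 510 and 540 at 8 h (log2 -1.21, limma adjusted p = 0.0859). Both were without overlap. Ccnb2, Ube2c, Bub1 and Aurkb had log2 differences of -2.02, -1.67, -1.47 and -1.47. Birc5 and Aurka were the members whose groups overlapped: Birc5 was at 4.94, 2.94 and 9.44 at 20 h and 5.06, 27.9 and 28.2 at 8 h.

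Called genes outside the list, picked here after their values were seen, include more of the same machinery, each lower at 20 h. Kifc1, a minus-end kinesin of the spindle, was at 10.5, 9.61 and 6.50 at 20 h, against 28.0, 31.6 and 36.3 at 8 h (log2 -1.76, SE 0.21, limma adjusted p = 0.00413). Prc1, which bundles microtubules of the central spindle, was at 24.7, 39.8 and 23.7 at 20 h, against 69.8, 129 and 114 at 8 h (log2 -1.78, SE 0.23, limma adjusted p = 0.00458). Its gene overlaps Rccd1, which was not called (log2 0.44, limma adjusted p = 0.715). Foxm1, a transcription factor that activates G2 and M genes, was at 39.5, 31.9 and 41.6 at 20 h, against 65.6, 79.3 and 99.7 at 8 h (log2 -1.08, SE 0.17, limma adjusted p = 0.0211). The NDC80 kinetochore complex was represented by Nuf2 (log2 -1.41, SE 0.24, limma adjusted p = 0.0357) and, at under 21 in every library, Spc24 (log2 -1.51, SE 0.27, limma adjusted p = 0.0405). Iqgap3, a scaffold protein of proliferating cells, was at 31.8, 31.1 and 33.2 at 20 h, against 71.6, 78.3 and 70.1 at 8 h (log2 -1.17, SE 0.20, limma adjusted p = 0.0319).

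Genes of the replication fork and origins gave no call. Of 17 DNA replication genes none was called, 10 had a positive log2 difference and the median was 0.05. The member with the smallest p, Mcm3, a subunit of the replicative helicase, had a log2 difference of 0.52 (limma adjusted p = 0.353).

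Over the 6 times, the mitosis genes stood out most at 8 h. The mean log2 deviation of the 18 genes from their mean over the 18 vehicle libraries was between -0.41 and -0.34 at 20 h and between 0.54 and 1.28 at 8 h. The highest value in any vehicle library of the other times was 0.08, at 4 h, and the lowest was -0.81, at 16 h. The 20 h libraries lay within the range of the other times only through that lowest library, 16 h replicate 1. The next lowest value was -0.32, in 12 h replicate 1, above all 20 h libraries. The 8 h libraries lay above all libraries of the other times, with replicate 1 the lowest of the 3. Mean Ccnb1 levels were 24.7, 50.8, 20.8, 13.7, 10.8 and 19.5 at 4, 8, 12, 16, 20 and 24 h. With 20 h replicate 1 alone, all 18 members were negative with a median of -1.46. Under the names of the authors' selected-gene tables, 17 were negative with a median of -0.27 and none was called. Over the other 22 settings tried, which keep the full-table names, the median lay between -1.55 and -1.15. The number of called members ranged between 0 and 15 over those settings, and it was 0 wherever the replicate 2 or the replicate 3 libraries of both times were left out, and with 20 h replicate 1 alone.

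**Figure D3:**
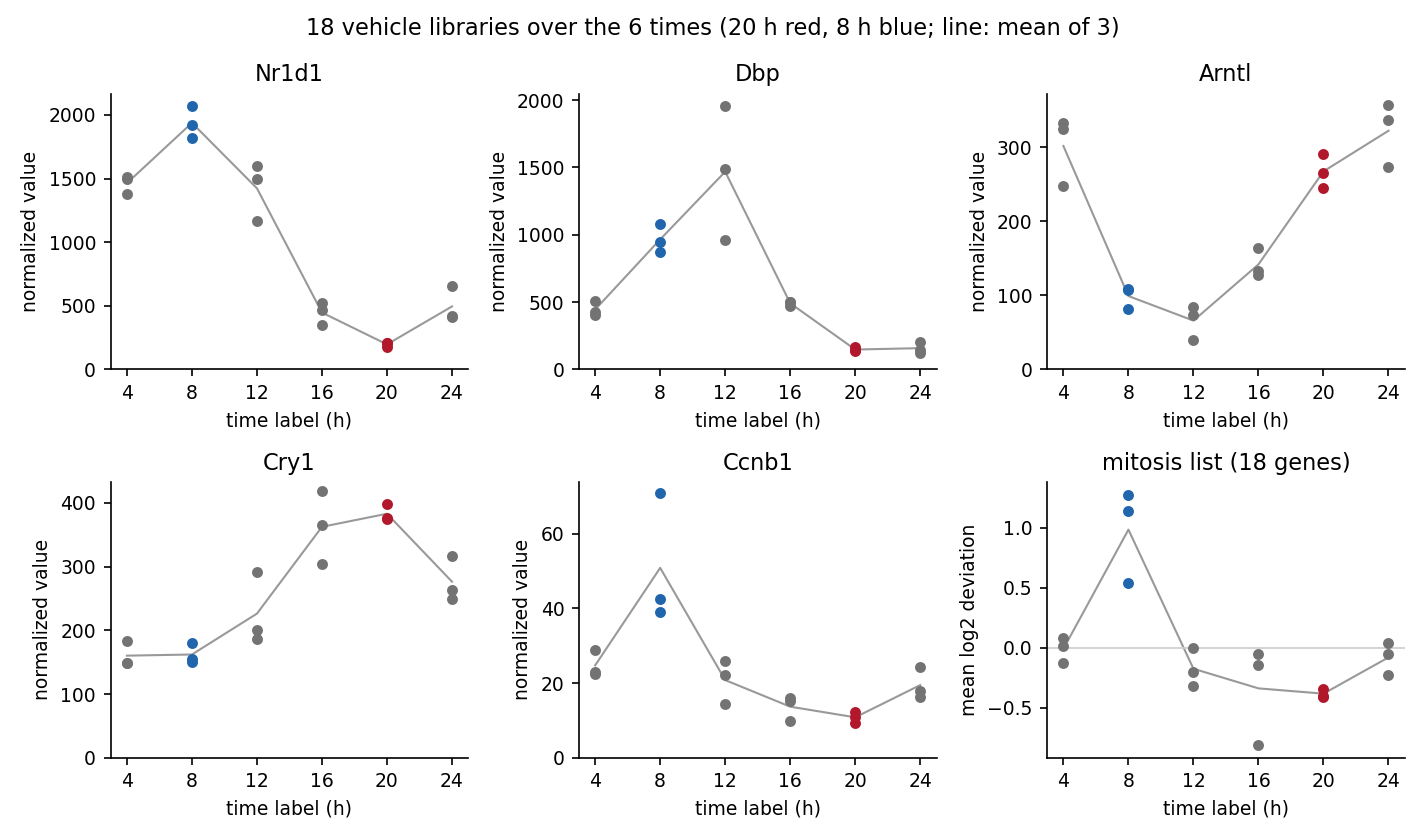
Level of Nr1d1, Dbp, Arntl, Cry1 and Ccnb1 (quantile-normalized signal) and mean log2 deviation of the 18 mitosis genes over the 6 vehicle times in hours. Points are libraries, 20 h in red and 8 h in blue, and lines join means of 3. Nr1d1 is lowest and Cry1 highest at 20 h, Arntl is lowest at 12 h, and Ccnb1 and the mitosis list are highest at 8 h.

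The mean levels over the 6 times show where the compared pair lies in the course of each clock gene. Mean Nr1d1 was 1463, 1937.5, 1423, 446, 196 and 494 at 4, 8, 12, 16, 20 and 24 h, so 20 h was its lowest and 8 h its highest time. Mean Dbp was 445, 965.5, 1469, 491, 147 and 157, with its highest mean at 12 h. Arntl ran the other way at 302, 99.0, 65.8, 142, 267.5 and 322. Mean Cry1 was 160, 162, 226.4, 363, 383 and 276.5, highest at 20 h. Per2, which overlapped between 20 h and 8 h, was at 205, 493, 746, 826, 508 and 266, and Per1 at 258, 546.5, 757, 542, 525.5 and 311. Both period genes had their highest mean between the compared times and nearly equal means at them. Among the 19 called genes with a mean of at least 20, those most like Dbp over the 6 time means were Nr1d2 (Pearson r = 0.98), Nr1d1 (0.81), Chodl (0.72), C330027C09Rik (0.67) and Ccnb1 (0.57). The most like Arntl were Angptl7 (0.78), Pitpnm2 (0.50), Lonrf3 (0.50), Cry1 (0.22) and Cdk1 (-0.05). These correlations describe 6 means of 18 libraries, and the pool was chosen on the difference between 2 of those times.

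Of the genes called higher, Angptl7, which encodes a secreted angiopoietin-like protein (chr4:148495183-148500460, minus strand), had the largest difference. It was at 320, 355 and 350 at 20 h, against 43.6, 42.4 and 35.9 at 8 h, an 8.25-fold higher level (log2 3.05, SE 0.43, limma adjusted p = 0.011). The 3 libraries at each of these times were close to one another. The log2 difference with 20 h replicate 1 alone was 2.95 and was not called (limma adjusted p = 0.467). Its means over the 6 times were 80.3, 40.6, 28.1, 164, 342 and 153, highest at 20 h, and the 16 h libraries were spread widely at 190, 253 and 48.6. Angptl7 lies within Mtor on the opposite strand. Mtor, which encodes a growth-controlling kinase, was not called (log2 0.16, limma adjusted p = 0.615).

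Ces1g, a carboxylesterase abundant in liver, was at 47.6, 41.3 and 42.4 at 20 h, against 7.44, 9.44 and 5.28 at 8 h, 5.44-fold higher (log2 2.44, SE 0.38, limma adjusted p = 0.0195). Its highest value was in 20 h replicate 1, which of the 6 libraries had the lowest sum of hepatocyte markers. With that library alone at 20 h, Ces1g differed by 2.57 and was not called (limma adjusted p = 0.467). Pitpnm2, a membrane-associated phosphatidylinositol transfer protein, was at 1518, 1656 and 1592 at 20 h, against 793, 845 and 859 at 8 h (log2 0.93, SE 0.13, limma adjusted p = 0.0086). Lonrf3, a RING finger protein, was at 115, 149 and 127 at 20 h, against 44.3, 58.9 and 48.8 at 8 h (log2 1.34, SE 0.23, limma adjusted p = 0.0396). None of these groups overlapped. The features next in p in this direction, not called, were Adam22 (log2 1.02, limma adjusted p = 0.0616), Pde8b (1.22, 0.073), Net1 (0.55, 0.073) and Mab21l3 (1.17, 0.073).

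The remaining genes called lower belong to no one list. Chodl, which encodes the membrane lectin chondrolectin, was at 101, 126 and 88.1 at 20 h, against 336, 396 and 422 at 8 h (log2 -1.87, SE 0.29, limma adjusted p = 0.0192). Its means were 347.5, 385, 420, 102, 105 and 177 from 4 to 24 h, high at the first 3 times and low afterwards. Barx2, a homeobox transcription factor, was at 8.94, 3.67 and 7.11 at 20 h, against 22.8, 31.1 and 28.8 at 8 h (log2 -1.97, SE 0.33, limma adjusted p = 0.0308). Calls at means under 20 in both groups rest on few reads. They were Spc24, Foxn1, Camk2a, Adgre4 and Pax5, the last of which was at 0 in all 3 20 h libraries and at 2.39, 1.5 and 1.78 at 8 h, too few reads for a fold. Camk2a, a neuronal calmodulin kinase subunit, was at 2.89, 3.67 and 2.72 at 20 h, against 10.8, 9.39 and 9.56 at 8 h (log2 -1.42, SE 0.24, limma adjusted p = 0.0308). The gene C330027C09Rik was at 48.6, 52.4 and 49.3 at 20 h, against 81.2, 90.6 and 103 at 8 h (log2 -0.85, SE 0.13, limma adjusted p = 0.0179).

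Over 48 gene lists of the clock, steroid response, bladder function and cell types, 565 of 588 genes were tested. Of these, 2 were called higher and 9 lower, beside 0.0339% and 0.119% of all features, and 5 lists held a call. Among 23 collagens and matrix genes none was called, 19 had a negative log2 difference, 14 lay below at 20 h without overlap and the median was -0.41. Of all features tested, 9.14% lay below without overlap. Col3a1, a fibrillar collagen chain, was at 50471, 38583 and 38583 at 20 h and 60489, 74235 and 74235 at 8 h (log2 -0.72, limma adjusted p = 0.263). Fbn1, which encodes fibrillin of elastic microfibrils, was at 3097, 3852 and 3763 at 20 h and 5819, 6293 and 7511 at 8 h (log2 -0.87, limma adjusted p = 0.362). Col1a1 overlapped between the times (log2 -0.48). Under the other library names, 17 of the 23 were positive with a median of 0.09, so the direction of the list turned with the names. With the libraries of doubtful name left out, 21 were negative with a median of -0.38. A median of -0.38, with 19 negative, was found with 20 h replicate 1 alone. Fibroblast markers summed to 20225 to 21877 at 20 h and 21671 to 26578 at 8 h, and their part in the result was not tested.

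Among 18 genes of protein folding and stress in the endoplasmic reticulum none was called, 16 were positive, 10 lay above at 20 h without overlap and the median was 0.22. Of all features tested, 7.99% lay above without overlap. Hyou1, an HSP70-like chaperone, was at 2364, 2734 and 2638 at 20 h and 1546, 1806 and 1838 at 8 h (log2 0.58, limma adjusted p = 0.133). With 20 h replicate 1 alone, 13 were positive with a median of 0.14. All 9 genes of fatty acid synthesis were positive, 5 of them without overlap, with a median of 0.23 and no call. Acaca, the carboxylase that makes malonyl-CoA, was at 1995, 1940 and 1921 at 20 h and 1550, 1408 and 1405 at 8 h (log2 0.43, limma adjusted p = 0.193). With 20 h replicate 1 alone 6 of the 9 were positive with a median of 0.11, and under the other library names 5 were positive with a median of 0.01.

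Neither steroid nor mechanosensory genes gave a call. Nr3c1, the glucocorticoid receptor, and Fkbp5, one of its targets, had log2 differences of 0.00 in size and 0.28. The channels Piezo1 and Trpv4 differed by -0.18 and 0.28, the gap junction gene Gja1 by -0.12, the vesicular ATP transporter Slc17a9 by -0.25 and the muscarinic receptor Chrm3 by 0.21. P2rx3, a purinergic receptor of sensory nerves, was at 2.33, 0 and 0 at 20 h and 2.39, 2.94 and 1.78 at 8 h, too few reads for a comparison. Of 15 immediate early genes 13 were negative, but none was without overlap, since 8 h replicate 1 was low as given above for Fos. Of 15 interferon response genes 14 were negative, with a median of -0.50. At 20 h, 2 of the 15 lay below without overlap and 1 above, beside 9.14% and 7.99% of all features. The mean log2 deviation of the interferon response genes was 0.06, -0.05 and 0.09 at 20 h and -0.11, 0.59 and 0.80 at 8 h. In these values 8 h replicate 1 lay below the 20 h libraries. Neutrophil markers summed to 15 to 31.9 at 20 h and 33.2 to 58.4 at 8 h, and mast cell markers to 635 to 740 at 20 h and 546 to 612 at 8 h. Neither sum overlapped between the times, and no member of either list was called. The neutrophil sum covers 11 genes, of which 6 had enough values above 0 to be tested, and rests on few reads. The mast cell sum and its members ran in different directions: 7 of 8 members had a negative log2 difference, with a median of -0.32, and Kit, a receptor kinase, was the positive one at 0.74.

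**Figure D4:**
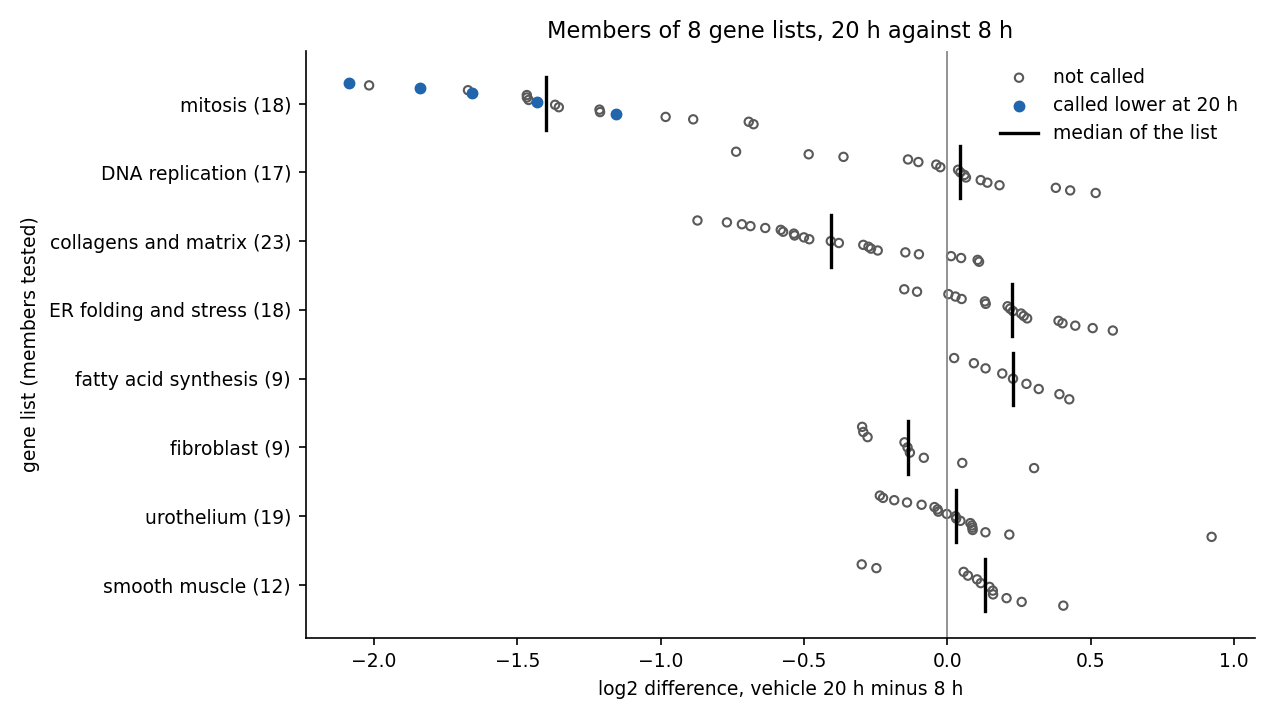
Log2 difference between 20 h and 8 h of the members of 8 gene lists, 1 point per gene, with a line at the median of each list and the 5 called genes filled. The mitosis genes lie below 0 with a median of -1.40, the collagens and matrix genes have a median of -0.41, and the DNA replication genes lie around 0.05.

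In mice given CORT, the same times were set side by side with the vehicle pair on a scale common to all 36 libraries. No feature of 17867 had a difference between 20 h and 8 h that itself differed between vehicle and CORT at a limma adjusted p under 0.05 (0%), and 713 passed at an unadjusted p under 0.05. Within CORT, 1 feature was called between 20 h and 8 h (0.0056%), Padi2, which encodes an enzyme that citrullinates proteins. It was at 114, 95.6 and 112 in CORT at 20 h, against 24.2, 26.4 and 31.5 at 8 h (log2 1.93, limma adjusted p = 0.0146), and at 94.4, 68.4 and 58.9 in vehicle at 20 h, against 24.6, 51.9 and 47.9 at 8 h. Nr1d1 was at 178, 212 and 212 in vehicle at 20 h, against 2122, 1860 and 1960 at 8 h. In CORT it was at 594, 570 and 659 at 20 h and 1009, 485 and 1556 at 8 h. The log2 difference was -3.30 in vehicle and -0.59 (SE 0.34) in CORT, and the contrast between them was -2.71 (SE 0.49, limma adjusted p = 0.144). In CORT, 8 h replicate 2 lay below all 20 h libraries while 8 h replicates 1 and 3 lay above them. This library is one of those with doubtful names.

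Of the 27 genes called in vehicle, 17 had a log2 difference of the same sign in CORT and 10 of the opposite sign, with no contrast called. Cdk1 was among the 10, at 29.4, 33.1 and 23.9 in CORT at 20 h and 24.5, 29.4 and 22.03 at 8 h (log2 0.18). Dbp was at 285, 301 and 332 in CORT at 20 h and 716, 397 and 833 at 8 h (log2 -1.02). Arntl was at 168, 283 and 195 at 20 h and 86.1, 188 and 87.4 at 8 h (log2 0.90). Cry1 was at 229, 318 and 219 at 20 h and 190, 305 and 193 at 8 h (log2 0.17). Replicate 2 at both times differed from the other CORT libraries in these last 2 genes. Angptl7 was at 104, 79.0 and 143 in CORT at 20 h and 43.2, 43.9 and 39.2 at 8 h (log2 1.31), without overlap. Ccnb1 was at 14.4, 13.7 and 11.2 in CORT at 20 h and 21.9, 14.3 and 16.0 at 8 h (log2 -0.37), at levels all below those of the vehicle 8 h libraries.

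The mitosis list had a median of -0.29 in CORT, with 14 of 18 members negative. Its mean deviation was -0.04, -0.03 and 0.03 in vehicle at 20 h and 0.92, 1.53 and 1.67 at 8 h, on the common scale. In CORT it was 0.07, -0.11 and -0.46 at 20 h and 0.28, -0.43 and 0.31 at 8 h, so vehicle 8 h was above all of the other 3 groups. The contrast between treatments was negative for all 18 members, with a median of -1.10, beside 0.01 over all features, and was called for none. The collagens and matrix list had a median of 0.17 in CORT with 20 of 23 positive. Its contrast was negative for all 23 (median -0.57) and called for none. The contrasts of both lists include the replicate 2 libraries of both treatments, whose names are in doubt, and were not run under the other names. The folding and stress genes of the endoplasmic reticulum had a median of 0.25 in CORT and of 0.22 in vehicle.

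**Figure D5:**
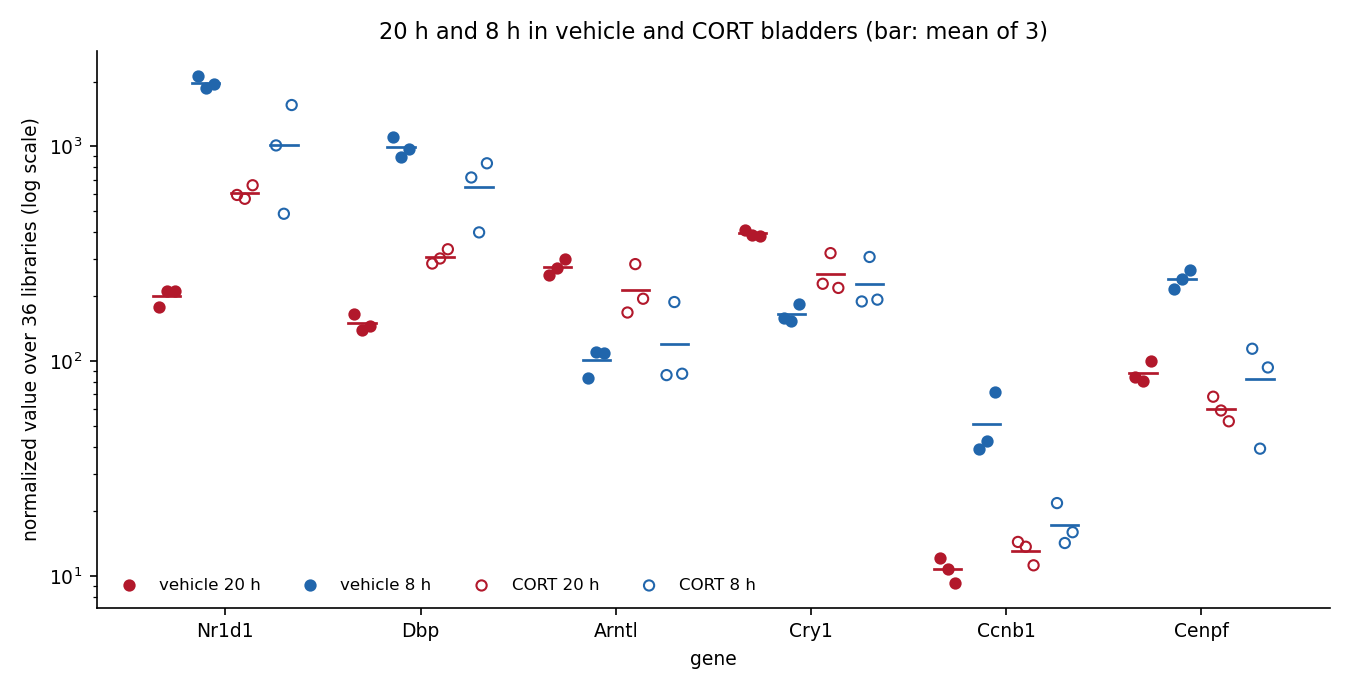
Level of leading genes in each library at 20 h and 8 h, in vehicle and in CORT (quantile-normalized signal on the common scale, log axis), with 20 h to the left of 8 h in each treatment and a bar at the mean. Vehicle Nr1d1 separates by a log2 difference of -3.30, and CORT Nr1d1 overlaps through 8 h replicate 2.

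The difference between 20 h and 8 h was also set against those of the other pairs 12 h apart in vehicle, 16 h against 4 h and 24 h against 12 h. It differed from the first for 21 features (0.119%) and from the second for 2 (0.0113%) by limma at an adjusted p under 0.05. Of the 27 genes called between 20 h and 8 h, 5 were among the 21 and 1 was among the 2. The log2 difference of Dbp was -2.71 for 20 h against 8 h, 0.15 for 16 h against 4 h and -3.19 for 24 h against 12 h. That of Arntl was 1.43, -1.08 and 2.34 for the same pairs, and that of Nr1d1 was -3.30, -1.73 and -1.55. Per2, which did not separate 20 h from 8 h, differed by 2.01 between 16 h and 4 h and by -1.46 between 24 h and 12 h. The mitosis list had medians of -1.40, -0.44 and 0.10 over the 3 pairs.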

How the data were processed

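Total RNA of 36 bladder libraries had been sequenced, and the deposited gene signal had been quantile-normalized by the authors over 12 libraries per table, as the identical sorted values of the libraries show. The submitters' processing notes name build mm10, while the sources used here name no aligner or counter. The authors' tables of selected genes, deposited as log2 values, were used only to check library names. Mean totals were 10682675 per vehicle library, and a value of 20 stood for 17 to 27 reads.

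The 18 vehicle libraries were put on 1 common quantile scale (36 for the tests with CORT), a pseudocount of 1 was added before log2, and features at 0 in over 50% of libraries were left out. Folds of low genes are understated on this scale. limma 3.58.1 in R 4.3.3 fitted 6 time means over 18 libraries, with Benjamini-Hochberg adjustment over all features tested at 0.05. Tables were handled with Python 3.11.15, numpy 2.4.6 and pandas 2.3.3, and figures drawn with matplotlib 3.10.9. The fits were also run on simulated counts with the same spread setting for all genes and no outlying libraries. That run does not cover the outlying libraries described here. Design and samples followed the labels.

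The text names called genes with a mean of at least 20 and no overlap, up to 15 per direction, filled up to 10 with the next in p, all clock list members, the leading member of other lists, and the leading genes of the other tests. Predicted genes are counted only, except where the likeness rule gave one, and some genes that the rule names are not reported here. Others (all mitosis genes, Padi2, low calls, hepatocyte genes, collagen and lipid examples) were chosen after their values were seen. Members and lists were chosen with earlier results of these data known. Replicate 3 libraries take their time from their titles and were registered later, so they may be a batch that holds 1 library of each group. Gene positions are GENCODE vM21 on GRCm38.

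Alternatives changed the scale, filter, pseudocount, spread model, libraries and names. Between 20 h and 8 h, same-numbered libraries deviated from their group means with correlations of -0.032, -0.053 and 0.023. For libraries of other numbers the correlations were -0.019 to 0.055. Deviations of the libraries of a group cancel out, so these correlations constrain one another and cannot all be positive. They therefore do not decide whether a replicate number shares an effect. These values cover all features tested at 2 times, and an effect that a replicate number shares in some genes was not tested.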

Additional observations from a re-analysis of the deposited data

Results flagged for a closer look

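The difference between 20 h and 8 h in vehicle differed from that between 16 h and 4 h, by a limma test of the difference itself, for 11 named genes. The differences of log2 differences were -2.85 for Dbp (adjusted p = 0.00258), 2.51 for Arntl (0.0124), -1.57 for Nr1d1 (0.0466), -1.96 for Per2 (0.00258), -4.95 for Ciart (0.035) and -1.41 for Tef (0.0438), all genes of the clock. Pgr, the progesterone receptor, gave -2.91 (adjusted p = 0.0332) and was at 55.6, 36.2 and 39.5 at 20 h and 116, 109 and 149 at 8 h. Of genes of dividing cells, Foxm1 gave -1.56 (0.035) and Kpna2, a nuclear import receptor, -1.77 (0.0129). Igdcc3, a membrane protein of the immunoglobulin superfamily, gave -1.91 (0.0465). Pax5 gave -2.84 (0.00258), a fitted value that rests on a few reads and is no fold. Against 24 h minus 12 h, the limma test of the difference passed for Per2 at 1.52 (adjusted p = 0.0375) and Adgre4, an adhesion receptor of myeloid cells, at -1.96 (0.00494).

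Without the replicate 1 libraries, 61 features differed from 16 h against 4 h and 17 from 24 h against 12 h, without replicate 2 the numbers were 1 and 0, and without replicate 3 they were 0 and 0. The part of single libraries in these values was not tested further.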

How the results depend on the processing

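Against 27 calls (11 on the gene lists), other settings gave 50 with the 6 libraries alone (7 on the lists), 51 with a pseudocount of 8, 44 with a mean of at least 10, 45 with an intensity trend and 305 with library weights (43). With no filter there were 11 calls (6), from a limma fit in which most residual variances are exactly 0. The deposited tables of replicates 1 and 2, 1 and 3, and 2 and 3 gave 1, 1 and 117 calls (1, 1 and 25 on the lists). Leaving out 1 library gave 7 to 44 calls, and leaving out 1 replicate number 1 to 120 (1 to 25 on the lists). Without the libraries named in 2 ways there were 3 calls (2), with the selected-gene names 0 (0), with all 36 libraries 25 (7) and with 20 h replicate 1 alone 1 (1). The last 2 settings were chosen after seeing the data. The 27 genes do not overlap between the times, so leaving out libraries could not turn their signs. Under the other settings their signs were the same wherever they were tested, which was 23 genes with a mean of at least 10. These settings keep all or most of the libraries that gave the calls, so the kept signs are no separate support. The cause of the changes in number was not tested, except that fewer libraries enter some of the fits.

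The labels do not say what libraries of the same replicate number share. With a replicate block 39 genes were called, 26 of them among the 27. The block gave 13 genes in place of 21 for the contrast with 16 h against 4 h, and leaving out 1 replicate number gave 0 to 61. The contrast with 24 h against 12 h gave 0 to 17 in place of 2, and the contrast with CORT 0 to 7 in place of 0.

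Changes of sign concerned uncalled genes. With the names of the selected-gene tables, the log2 differences were 0.040 for Birc5, 0.54 for Ccl8, -0.12 for Cirbp, -0.00831 for Cldn4, 0.19 for Col1a1, 0.17 for Col5a2, 0.024 for Dnajb1, 0.038 for Epb42, 0.28 for Fos, 0.14 for Gja1, 0.10 for Lox, 0.38 for Mpo, 0.37 for Per1, 0.15 for Piezo1, -0.0040 for Scd2 and 0.10 for Slc17a9. With 20 h replicate 1 alone they were -3.16 for Alb, -1.76 for Apob, -1.32 for Cps1, -0.14 for Fkbp5, -0.12 for Myocd, 0.14 for Nr3c1, 0.11 for Per1 and 0.18 for Rorb. In the deposited table of replicates 1 and 2 Nr3c1 had 0.030 and Rorb 0.067, Per1 had 0.047 in that of replicates 1 and 3, and Per2 had -0.095 in that of replicates 2 and 3 and -0.010 with library weights. Without the libraries named in 2 ways Per1 had 0.048. When libraries or replicate numbers were left out, the values ranged over -0.074 to 0.047 for Nr3c1, -0.22 to 0.048 for Per1, -0.094 to 0.14 for Per2 and -0.25 to 0.066 for Rorb.

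Counting error is in the values and was not modelled separately, and genes under 20 rest on fewer than about 27 reads.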

Other observations

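Among other uncalled genes with no overlap between the times, Mt2, a metal-binding metallothionein, was at 102, 102 and 140 at 20 h and 256, 223 and 314 at 8 h (log2 -1.20, limma adjusted p = 0.0859), with a log2 difference of -1.22 in CORT. Wnt6, a Wnt ligand, was at 36.9, 23.0 and 35.6 at 20 h and 11.8, 12.7 and 10.1 at 8 h (log2 1.37, limma adjusted p = 0.108). The gene lists that hold Mt2 and Wnt6 had no called member.

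Hepatocyte transcripts also appeared in single libraries outside the compared pair. On the scale common to both treatments, the sum of the 24 markers was 3716 in CORT 16 h replicate 1, with Alb at 1435, and 88.3 to 707 in the other CORT libraries.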
